A study of Trichoderma reesei with 6 samples.

Results

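The 4 genes described here encode sugar transporters tied to cellulase induction in *Trichoderma reesei*, a filamentous fungus used for industrial cellulase production. They are *crt1* (listed as TRIREDRAFT_3405), TRIREDRAFT_79202, TRIREDRAFT_77517 and TRIREDRAFT_69957. They were chosen by locus tag from the 9113 genes of the deposited table, not by their values, although earlier results of these data were known. The gene tables used hold no protein descriptions, so that their identity as transporters was taken as given. All 4 were above 0 FPKM in every library. FPKM is the number of sequenced fragments of a gene relative to the length of its exons and to all fragments of the library.

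The libraries came from mycelia of the strains QPP and Δ*gul1* (labelled dgul1), with 3 cultures each. Both strains descend from QP4, a strain that lacks *pyr4* and needs uridine, and both carry the *Aspergillus niger* marker gene *pyrG*. QPP received *pyrG* at a random site and has an intact *gul1*, whose product is thought to bind mRNA. Δ*gul1* is 1 transformant in which *pyrG* replaced the major part of *gul1*, so that the gene and the site of the marker changed together. All cultures were grown for 36 hr with 2% glucose and then for 48 hr at 30°C with 1% cellulose as carbon source. RNA was taken from whole mycelium, where fewer hyphae of one kind and less RNA in each of them cannot be told apart.

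Cellulose is too large to enter the hypha. Secreted cellulases cut it to cellobiose and longer cellodextrins, which are split to glucose by β-glucosidases outside the cell or taken up by permeases of the major facilitator superfamily and split inside. Lactose, a soluble inducer of cellulases, uses part of the same route. In *T. reesei*, *crt1* is known as the permease gene without which cellulase genes are not induced by cellulose or lactose.

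The transcript of *gul1* (TRIREDRAFT_77084) checked the strain labels, since it ranged from 79.9 to 86.9 FPKM in QPP libraries and only from 0.581 to 0.979 FPKM in those of Δ*gul1*. The fragment totals behind the FPKM, recovered from the values themselves, were 17654286 to 21659230 per library. At least 95.7% of each total lay on genes of the deposited table. The strains were compared with limma over 9006 genes (those detected in 1 or more libraries), after FPKM were scaled between libraries and log2 was taken with a pseudocount of 1. Here a gene "rose" or "fell" where its adjusted *p* (Benjamini-Hochberg over all genes) was under 0.05, and it was "called" where it passed the thresholds of the study's methods (log2 fold change past 1 in either direction, with *p* under 0.05 before adjustment). Without the scaling, the median change over all genes was 0.14 in log2 in place of 0.01.

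None of the 4 transporter genes was called (0 of 4, limma), while 3.95% of all genes tested were. At an unadjusted *p* under 0.05 there were 2 of the 4 with limma and 3 of the 4 with limma's voom on recovered fragments, where 41.0% of all genes passed with each of these fits, and 0 were called under any setting tried. With adjusted *p*, 2 of the 4 passed, where 29.6% of all genes did. Both fell, against a background of 15.0% of all genes lower, and none rose, against 14.5% higher. This split depended on the scaling: on the FPKM as deposited, 2 of the 4 rose (background 30.0%) and 1 fell (background 8.28%). After scaling the genes that fell were *crt1* and TRIREDRAFT_69957. On the FPKM as deposited TRIREDRAFT_69957 fell, *crt1* did not pass, and TRIREDRAFT_79202 and TRIREDRAFT_77517 rose. Of the 4 genes, 3 had no overlap between scaled QPP and Δ*gul1* libraries, a separation found for 45.0% of all genes.

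**Figure D1:**
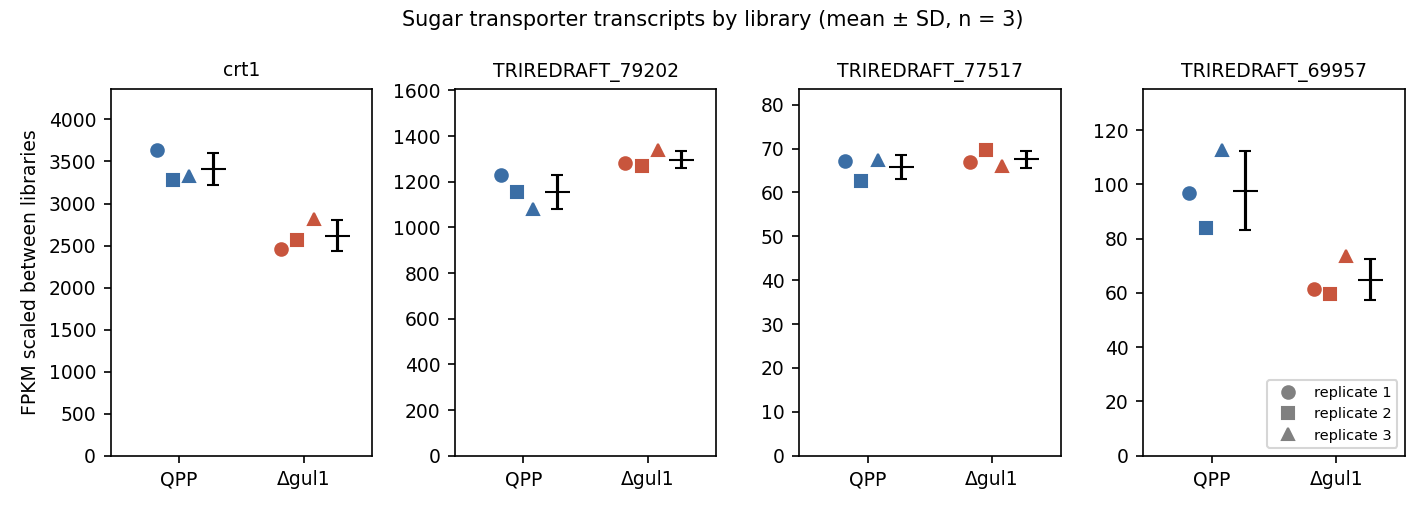
Transcript level of the 4 transporter genes (vertical axes, FPKM scaled between libraries, each from 0) in QPP and Δ*gul1*, with 1 point per library shaped by replicate and bars for the mean ± SD (n = 3). The Δ*gul1* libraries lie below all QPP libraries for *crt1* and TRIREDRAFT_69957 and above them for TRIREDRAFT_79202, and the strains overlap for TRIREDRAFT_77517.

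The *crt1* gene lies on its scaffold of the QM6a assembly from 1355561 to 1357331, and 1530 of these 1771 bp are exonic. It was the most abundant of the 4 transcripts. It stood at 3385, 3169 and 3147 FPKM in QPP replicates 1 to 3, which made it 16th of all genes by mean FPKM. The cultures of Δ*gul1* had 2575, 2715 and 3012 FPKM in the same order of replicates, 26th of all genes. Each Δ*gul1* library was thus below each QPP library, by the least for Δ*gul1* replicate 3. QPP had a mean of 3234 ± 131 FPKM, and Δ*gul1* had 2768 ± 223 FPKM (SD over 3 cultures). After scaling, *crt1* changed by −0.39 in log2 with an SE of 0.106, and limma gave an adjusted *p* of 0.0299 (Benjamini-Hochberg). As a ratio of mean scaled FPKM this is 0.766.

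This decrease of *crt1* kept its direction under every setting tried, but its adjusted *p* did not stay under 0.05. With any 1 library left out it lay between 0.0538 and 0.0971 (limma), with log2 fold changes from −0.44 to −0.34. Without scaling, the log2 fold change was −0.23 (limma, adjusted *p* = 0.139), which is −0.37 relative to the median of all genes under that setting. Counting error was small beside the spread of the cultures, at most 0.369%, since each library had 73324 to 105008 fragments of *crt1*. Those fragments were 0.495 ± 0.0201% of the recovered totals in QPP and 0.423 ± 0.0342% in Δ*gul1* (SD, n = 3).

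TRIREDRAFT_79202 lies on its scaffold from 30288 to 31862, with 1313 bp of exons in 1575 bp. Its transcript was the next in abundance, at 1143, 1115 and 1023 FPKM in QPP replicates 1 to 3. The Δ*gul1* replicates had 1344, 1340 and 1431 FPKM. All Δ*gul1* libraries were above all QPP libraries, and the distance between the strains narrowed once the libraries were scaled. QPP had a mean of 1094 ± 63.2 FPKM (77th of all genes), and Δ*gul1* had 1372 ± 51.5 FPKM (62nd). After scaling, the difference in log2 was 0.17 with an SE of 0.0768, which did not pass (limma, adjusted *p* = 0.140), and the ratio of mean scaled FPKM was 1.12. On the FPKM as deposited, the gene passed, at 0.33 (adjusted *p* = 0.0138, limma), or 0.19 relative to the median of all genes.

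TRIREDRAFT_69957, from 179270 to 181052 with 1623 bp of exons in 1783 bp, was far less abundant. QPP replicates 1 to 3 had 90.0, 80.9 and 107 FPKM. Δ*gul1* replicates 1 to 3 had 64.2, 63.1 and 78.5 FPKM, so that the highest Δ*gul1* library was just under the lowest QPP library. This transporter gene varied most between cultures of one strain, with a coefficient of variation of 14.1% in QPP and 12.6% in Δ*gul1*, where *crt1* had 4.07% and 8.07%. Its counting error, with 1807 to 3268 fragments per library, was at most 2.35%. The mean fell from 92.5 ± 13.1 to 68.6 ± 8.62 FPKM (SD, n = 3), or by 0.58 on the log2 scale with an SE of 0.120 (limma with Benjamini-Hochberg adjustment, adjusted *p* = 0.00937). This was the lowest of the 4 log2 fold changes, and 94.8% of all genes tested were above it. It kept an adjusted *p* under 0.05 in all 15 alternative fits of limma, with log2 fold changes from −0.69 to −0.42.

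TRIREDRAFT_77517, from 428282 to 430100 with 1748 bp of exons in 1819 bp, had the steadiest transcript. The QPP libraries had 62.6, 60.4 and 63.8 FPKM in the order of their replicate numbers. Those of Δ*gul1* had 70.2, 73.6 and 70.5 FPKM. The coefficient of variation as deposited was 2.72% in QPP and 2.56% in Δ*gul1*, close to the counting error of up to 2.18% that 2104 to 2536 fragments per library allow. The spread was wider after scaling, at 65.7 ± 2.70 in QPP and 67.6 ± 1.89 in Δ*gul1* (SD, n = 3). As deposited, the strains did not overlap, as for 51.8% of all genes, but after scaling they did, with 62.6 to 67.3 in QPP and 66.0 to 69.6 in Δ*gul1*. The difference in log2 was 0.04 with an SE of 0.0568 (limma, adjusted *p* = 0.657). Before scaling it was 0.20 (adjusted *p* = 0.0255, limma), of which 0.06 was above the median of all genes.

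In FPKM, which are per length and can be compared between genes, the order in QPP was *crt1*, TRIREDRAFT_79202, TRIREDRAFT_69957 and TRIREDRAFT_77517, with no overlap between neighbours in that order. In Δ*gul1*, the lower pair could not be ordered, since the 70.2 to 73.6 FPKM of TRIREDRAFT_77517 lay inside the 63.1 to 78.5 FPKM of TRIREDRAFT_69957. As deposited, the 4 transcripts summed to 4482 ± 177 FPKM in QPP against 4279 ± 280 FPKM in Δ*gul1*, with overlapping libraries. After scaling the sums were 4732 ± 256 and 4044 ± 223, without overlap. Within this sum, the share of *crt1* was 72.1 ± 0.476% in QPP and 64.6 ± 1.04% in Δ*gul1*. The share of TRIREDRAFT_79202 was 24.4 ± 0.820% in QPP and 32.1 ± 1.00% in Δ*gul1* (SD, n = 3).

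Ratios between the transcripts within a library do not depend on how libraries are scaled to each other, apart from the pseudocount, so they show whether one transporter moved apart from another. Of the 6 pairs, which are built from only 4 genes, 4 did not overlap between the strains, while 48.1% of all pairs of the genes tested were separated in the same way. The level of *crt1* was 2.96 times that of TRIREDRAFT_79202 in QPP and 2.01 times in Δ*gul1*. In log2, the QPP replicates had ratios of 1.57, 1.51 and 1.62, and the Δ*gul1* replicates had 0.94, 1.02 and 1.07. The difference of −0.55 in log2 was large beside the SD of 0.0576 and 0.0681 among cultures. With any 1 library left out it lay between −0.59 and −0.52.

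The ratio of TRIREDRAFT_79202 to TRIREDRAFT_69957 was 11.8 in QPP and 19.8 in Δ*gul1*, which was the largest of the 6 differences at 0.75 in log2. The ratio of TRIREDRAFT_77517 to TRIREDRAFT_69957 was 0.681 in QPP and 1.05 in Δ*gul1*, a difference of 0.62 in log2. For *crt1* over TRIREDRAFT_77517 the log2 difference was −0.42. For *crt1* over TRIREDRAFT_69957 and for TRIREDRAFT_79202 over TRIREDRAFT_77517 the strains overlapped, with log2 differences of 0.20 and 0.13. A two-sided exact permutation test gave *p* = 0.1 for the 4 separated pairs (0.15 adjusted over the 6 pairs), and 0.1 is the smallest value that 3 libraries against 3 allow.

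**Figure D2:**
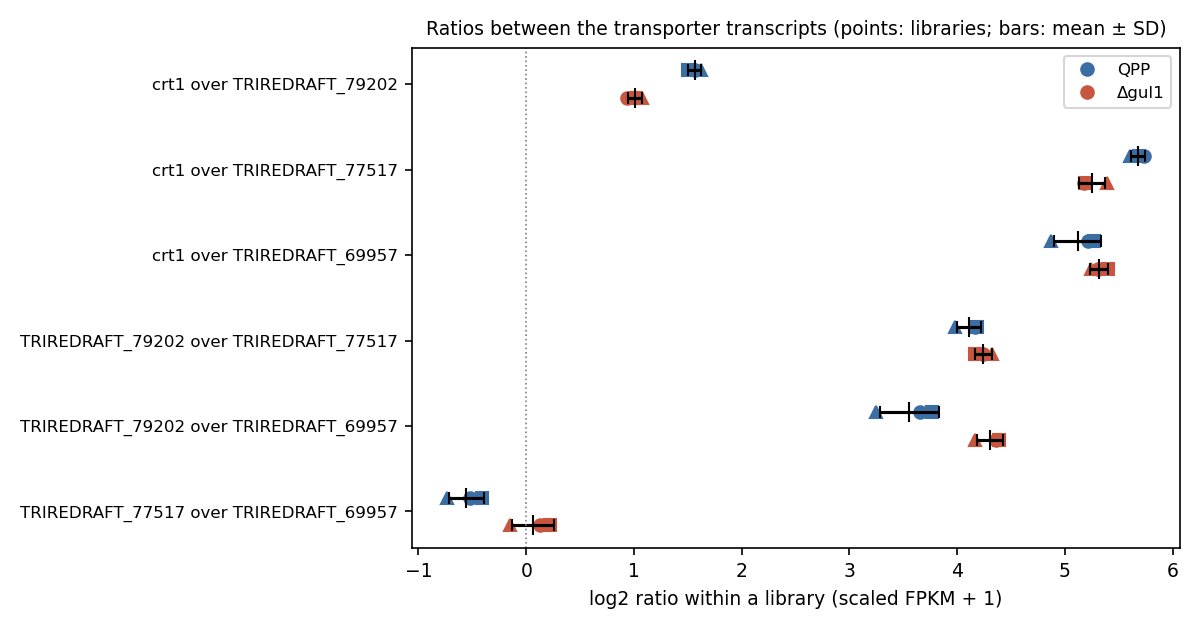
log2 ratio of scaled FPKM plus 1 between each of the 6 pairs of transporter transcripts within a library (horizontal axis), with points for libraries and bars for the mean ± SD (n = 3) in QPP and Δ*gul1*. The ratio of *crt1* to TRIREDRAFT_79202 lies from 1.51 to 1.62 in QPP and from 0.94 to 1.07 in Δ*gul1*.

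To set the transporters beside the rest of the route from sugar to cellulase gene, 18 genes of sugar uptake, disaccharide cleavage, sugar catabolism and cellulase regulation were listed, of which 17 were in the table. Of these 17 genes, 12 are listed by name and 5 by locus tag, and among the latter a name was found for TRIREDRAFT_80240 only. The place of the other 4 in the list rests on their tags and could not be checked against a gene description. The list was also drawn up with earlier results of these data known, so that its counts are a description only. In Δ*gul1*, 2 of the 17 rose (background 14.5%), 10 fell (background 15.0%) and 5 did not pass. Among the 13 genes with a name, 1 rose, 8 fell and 4 did not pass. The median log2 fold change was −0.27, against 0.01 for all genes tested. On the FPKM as deposited, 3 of the 17 rose (background 30.0%) and 7 fell (background 8.28%), and the median was −0.12 against 0.14 for all genes. By the thresholds of the study's methods, 1 was called higher (background 1.87%) and 2 lower (background 2.09%), under every setting that keeps those thresholds.

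The gene called higher, *hxt1*, is listed under the name of a hexose transporter gene. Its exons cover 5792 bp, where those of the 4 transporter genes cover 1313 to 1748 bp. In QPP, *hxt1* had 53.4 to 55.5 FPKM. In Δ*gul1* it stood well above that, with a mean of 136 ± 5.41 FPKM. After scaling, the log2 difference of 1.15 (SE 0.0509) had an adjusted *p* of 1.11e-05 with limma. Among the genes for disaccharide cleavage, the secreted β-glucosidase gene *cel3a* fell most, with a log2 fold change of −2.35 after scaling. Its deposited values were 379 ± 43.3 FPKM in QPP against 81.9 ± 9.38 in Δ*gul1* (SD over 3 cultures). The β-galactosidase gene *bga1* (TRIREDRAFT_80240), whose enzyme splits lactose, fell by 1.55 in log2 after scaling. As deposited, *bga1* had 46.4 ± 4.70 FPKM in QPP and 17.0 ± 1.65 in Δ*gul1*. Both genes are thus called as lower. The intracellular β-glucosidase genes *cel1a* and *cel1b* fell without being called, with log2 fold changes of −0.45 (SE 0.0850) and −0.71 (SE 0.0578).

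Among the regulators, the activator gene *xyr1* fell, by 0.80 in log2 with an SE of 0.0871 (limma, adjusted *p* = 0.000473). The carbon catabolite repressor gene *cre1* did not pass (0.22, SE 0.144, adjusted *p* = 0.309, limma), nor did the repressor gene *ace1* (−0.05, adjusted *p* = 0.712, limma). The latter was 0.11 with the FPKM as deposited. Of the genes for D-galactose, which lactose releases, *gal1* (galactokinase) fell with −0.22 (adjusted *p* = 0.0424, limma), and it was at −0.07 with the FPKM as deposited. *gal7* (uridylyltransferase) had −0.20 and *gal10* (epimerase) 0.02, without passing. The aldose reductase gene *xyl1* (−0.40), the hexokinase gene *hxk1* (−0.32), TRIREDRAFT_77513 (−0.27) and TRIREDRAFT_104072 (−0.87) also fell, and TRIREDRAFT_41617 rose (0.37), while *hxk1* and TRIREDRAFT_77513 did not pass on the FPKM as deposited.

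**Figure D3:**
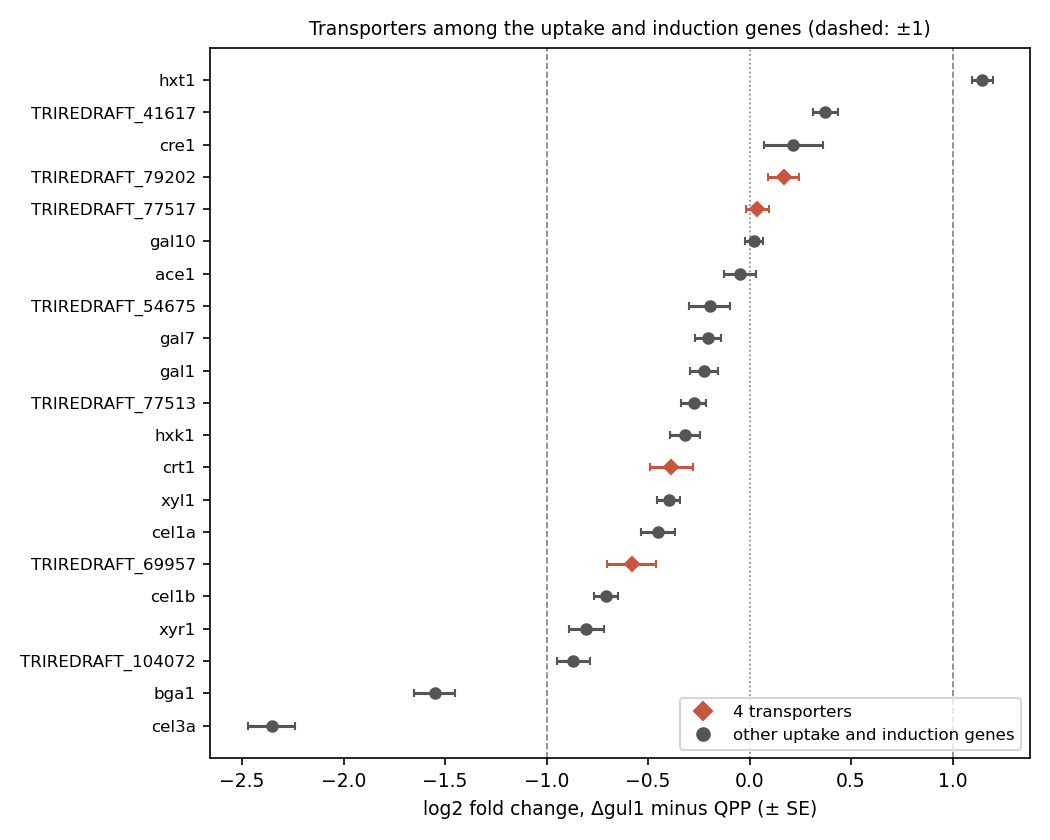
log2 fold change of Δ*gul1* minus QPP (horizontal axis, ± SE from limma) for the 4 transporter genes (diamonds) and 17 other genes of sugar uptake and cellulase induction (circles), in order of the fold change, with dashed lines at −1 and 1. The 4 transporters lie between −0.58 and 0.17, inside the dashed lines, while *hxt1* lies above 1 and *cel3a* and *bga1* lie below −1.

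The nearest gene in the annotation on each side of each transporter gene was also compared between the strains. TRIREDRAFT_77517 starts 1236 bp beyond the end of *cel1b*, which fell from 668 ± 10.4 to 457 ± 18.7 FPKM (adjusted *p* = 0.000130, limma), while TRIREDRAFT_77517 did not pass. TRIREDRAFT_60945 on its other side had a log2 fold change of −0.27 (adjusted *p* = 0.0760, limma). TRIREDRAFT_108663 starts 669 bp beyond the end of TRIREDRAFT_79202. It had 349, 360 and 348 FPKM in the QPP replicates, and 735, 747 and 729 FPKM in those of Δ*gul1*. This gene rose by 0.90 in log2 with an SE of 0.0519 (limma, adjusted *p* = 2.78e-05). Without scaling the value was 1.06, which is past the threshold of 1. The gene before TRIREDRAFT_79202, TRIREDRAFT_63981, fell, with −0.65 (SE 0.0731).

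TRIREDRAFT_69957 is followed at 1938 bp by TRIREDRAFT_69944, which also fell, by 0.81 in log2 after scaling with an SE of 0.0929 (limma, adjusted *p* = 0.000641). As deposited, TRIREDRAFT_69944 had 60.5 ± 5.85 FPKM in QPP and 38.2 ± 4.09 in Δ*gul1*. On the other side of TRIREDRAFT_69957, 625 bp away, TRIREDRAFT_112022 had 0.15 (SE 0.236). Beside *crt1*, neither TRIREDRAFT_106164 (0.20, SE 0.110) nor TRIREDRAFT_26163 (−0.08, SE 0.0918) passed, and these lie 2215 and 2639 bp away. None of the 8 nearest neighbours was called with limma after scaling, where 3.95% of all genes tested were. With adjusted *p*, TRIREDRAFT_63981, TRIREDRAFT_108663, *cel1b* and TRIREDRAFT_69944 passed among them, where 29.6% of all genes did. The strand setting of the counting is not given in the sources used here, and none of these neighbours overlaps a transporter gene in the annotation.

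**Figure D4:**
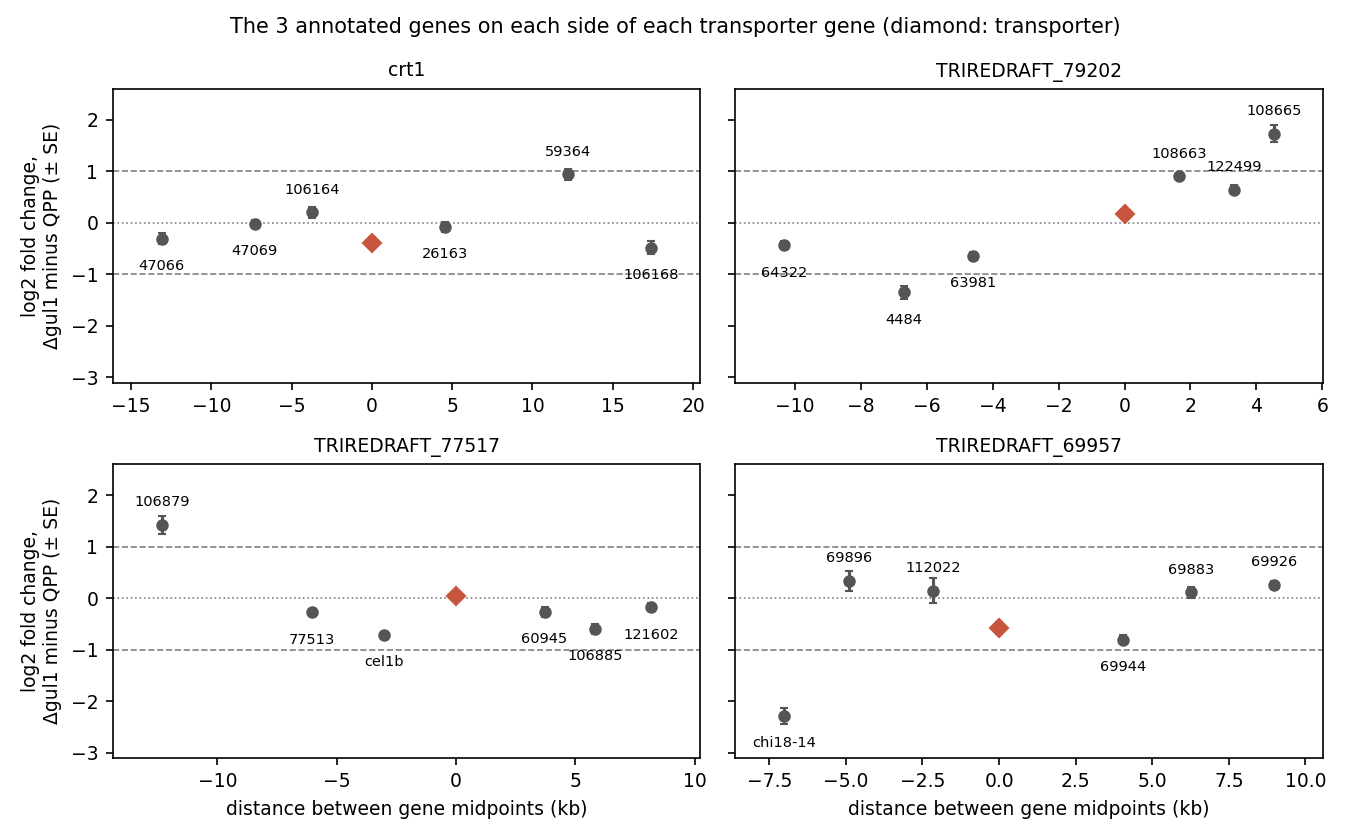
log2 fold change of Δ*gul1* minus QPP (vertical axes, ± SE from limma) for the 3 annotated genes on each side of each transporter gene, against the distance between gene midpoints in kb, with the transporter as a diamond at 0 and dashed lines at −1 and 1. The fold changes go from −0.65 just before TRIREDRAFT_79202 to 0.90 just after it, and *cel1b* beside TRIREDRAFT_77517 is at −0.71.

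Genes whose scaled log2 values followed each transporter most closely were looked for among the 6676 other genes whose mean reached 10 FPKM, by Pearson's *r* over the 6 libraries, as a description. For *crt1* these were TRIREDRAFT_21659 (*r* = 0.995), TRIREDRAFT_102700 (0.993) and TRIREDRAFT_78970 (0.992), whose log2 fold changes of −0.13 to −0.20 were smaller than that of *crt1*. For TRIREDRAFT_79202 they were *ftt2* (0.986), TRIREDRAFT_121073 (0.985) and TRIREDRAFT_111373 (0.978). The level of TRIREDRAFT_69957 was followed most closely by TRIREDRAFT_80980 (0.994), which had 1377 ± 140 FPKM in QPP against 1144 ± 81.7 in Δ*gul1*, then by TRIREDRAFT_54166 (0.991) and TRIREDRAFT_78966 (0.987). For TRIREDRAFT_77517, which did not pass, the closest were TRIREDRAFT_105863 (0.956), TRIREDRAFT_63678 (0.934) and TRIREDRAFT_67751 (0.932). All these values rest on the same 6 libraries of 2 strains. They also depend on the scaling, which divides all genes of a library by the same factor. As deposited, TRIREDRAFT_21659 had 80.8 ± 0.719 FPKM in QPP and 82.3 ± 2.48 in Δ*gul1*, and TRIREDRAFT_78966 had 64.6 ± 1.69 and 65.9 ± 1.31. Hence *r* does not show that such genes followed a transporter before scaling.

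**Figure D5:**
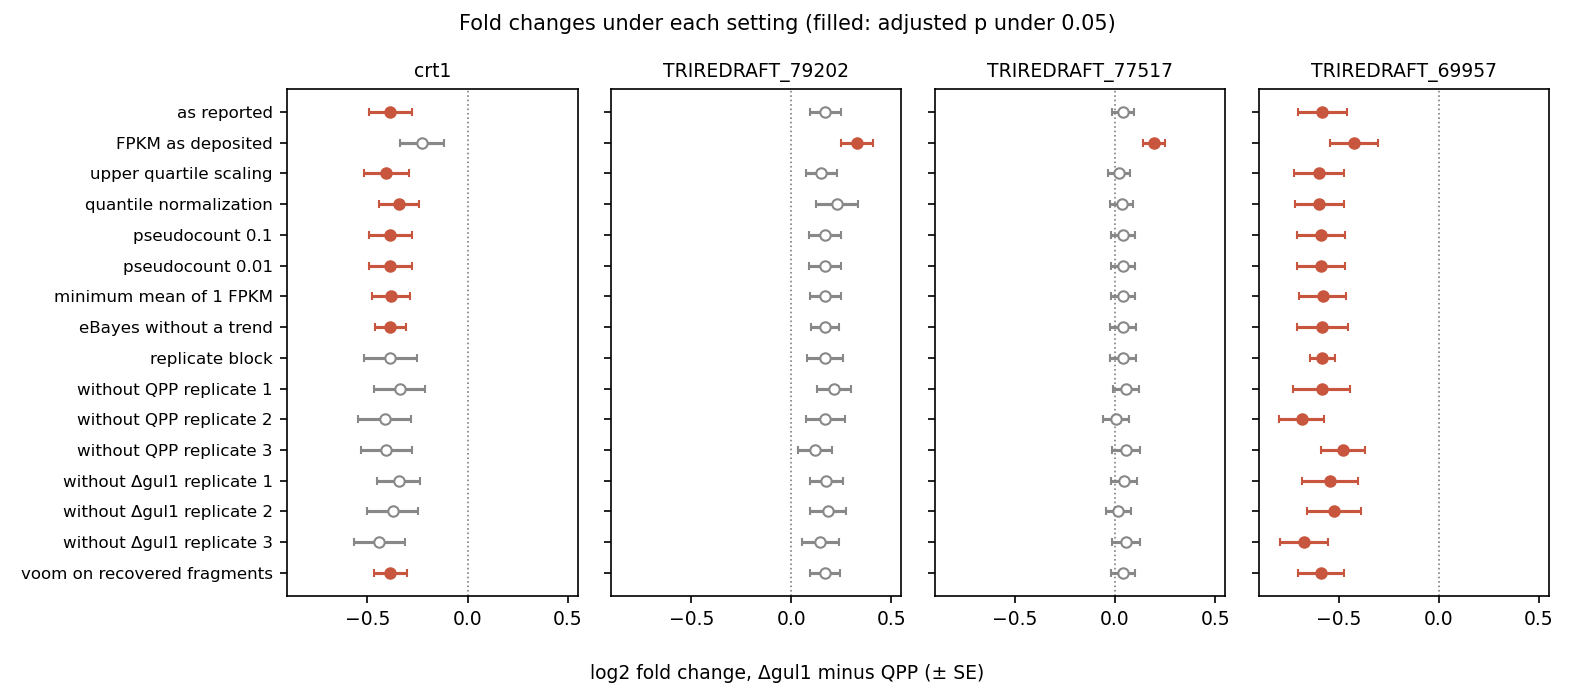
log2 fold change of Δ*gul1* minus QPP (horizontal axes, ± SE) of each transporter gene as reported and under 15 other settings (vertical axis), filled where the adjusted *p* was under 0.05. TRIREDRAFT_69957 is filled throughout, *crt1* under 7 of the 15 other settings, and TRIREDRAFT_79202 and TRIREDRAFT_77517 only with the FPKM as deposited.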

How the data were processed

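Paired reads were aligned by the authors to the QM6a genome (HISAT2) and counted by gene (HTSeq), and the deposited values are FPKM in 1 table of 9113 genes by 6 libraries, not scaled between libraries. Strains and replicate numbers came from the labels, and all columns were used. For scaling, each library's FPKM were divided by its size factor, the median ratio to the geometric mean of all libraries (0.931 to 1.07). log2(FPKM + 1) of the 9006 genes above 0 in a library was fitted with limma 3.58.1 in R 4.3.3 (trend, strain as the only term). Because of the pseudocount, fold changes of low genes are understated.

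The fragments behind each value and the exonic lengths were recovered for 9002 genes from the whole-number steps of FPKM times length (tolerance 0.02 of a fragment). For each of the 4 transporter genes 1 length was possible. The fit was tested on simulated data. Replicates of a strain differed by more than counting noise (chi-square per degree of freedom 11.3 to 27.6).

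The members, lists and tests were chosen with earlier results of these data known. Genes named are the 4 transporters, the nearest annotated gene on each side, the 3 genes most like each (mean of at least 10 FPKM), *gul1* and genes of the uptake and induction list, of which 1 is not reported here and was left out of its counts. A planned list of all sugar transporter genes by protein signature was not analysed here, because the gene table used (RefSeq, QM6a v2.0, which places 9109 of the genes) holds no sequences or products. Locus tags without a name in these tables are given no function. Ratios between transcripts were tested by two-sided exact permutation of libraries (scipy 1.17.1).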

Additional observations from a re-analysis of the deposited data

How the results depend on the processing

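The 4 transporter genes kept the direction of their log2 fold change in all 15 alternative fits, and TRIREDRAFT_69957 kept its adjusted *p* under 0.05. That of *crt1* was lost with the FPKM as deposited (log2 fold change −0.23), with the replicate number as a block (−0.39, adjusted *p* = 0.0724, limma) and with any 1 library left out (−0.44 to −0.34). With the FPKM as deposited, TRIREDRAFT_79202 (0.33) and TRIREDRAFT_77517 (0.20) passed. Same-numbered libraries had correlations of −0.132, 0.227 and 0.448 in their deviations from the strain means, so the numbers were not taken as pairs. The block called 169 genes higher and 188 lower.

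Without it, 168 genes were called higher and 188 lower (47.2% of calls higher), and with the FPKM as deposited 237 and 150 (61.2%). The number higher was 289 with a pseudocount of 0.1, 314 with 0.01 and 316 with voom on recovered fragments, an alternative chosen after seeing the data. The numbers lower were then 260, 280 and 275. With an adjusted *p* under 0.05 and no threshold on the fold change they were 1309 and 1354, and 2 and 10 in the uptake and induction list.

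Of the 52 other genes named or drawn, 28 kept direction and side of the threshold under every alternative and 7 changed sign, none of which passed in the main comparison. With the FPKM as deposited, *ace1* was at 0.11, TRIREDRAFT_47069 at 0.14, TRIREDRAFT_26163 at 0.066, TRIREDRAFT_21659 at 0.026 and TRIREDRAFT_78966 at 0.029. With 1 library left out, *ace1* lay between −0.12 and 0.015, TRIREDRAFT_47069 between −0.066 and 0.030, TRIREDRAFT_112022 between −0.031 and 0.36 and TRIREDRAFT_63678 between −0.029 and 0.055. The cause of these differences was not tested. The alternatives for the list of all sugar transporter genes were not run.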

Other observations

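Further from the transporter genes, the 24 genes drawn around them (3 on each side, chosen with their values in view) hold 4 called genes, where 3.95% of all genes tested were called. TRIREDRAFT_108665, the last gene drawn after TRIREDRAFT_79202, rose by 1.74 in log2 after scaling, with an SE of 0.174 (limma). As deposited, TRIREDRAFT_108665 had 6.98 ± 1.50 FPKM in QPP and 28.3 ± 4.63 in Δ*gul1* (SD over 3 cultures). TRIREDRAFT_122499, between it and TRIREDRAFT_108663, rose with 0.65. On the other side of TRIREDRAFT_79202, TRIREDRAFT_4484 (−1.35, called), TRIREDRAFT_64322 (−0.44) and TRIREDRAFT_63981 fell. Of all 24 genes drawn, 6 rose (background 14.5%) and 9 fell (background 15.0%). Since the set was chosen with its values in view, all counts over it are a description only. TRIREDRAFT_106879, the last gene drawn before TRIREDRAFT_77517, rose by 1.43 in log2 after scaling (SE 0.175). As deposited, its means were 33.5 ± 9.13 FPKM in QPP and 100.2 ± 4.35 in Δ*gul1*. The chitinase gene *chi18-14*, before TRIREDRAFT_69957, fell with −2.29 (SE 0.158).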
